A study of Mus musculus with 6 samples.

Results

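The 154 protease and protease inhibitor genes described here were the rows of the authors' table comparing Leydig cells of the fetal (FLCs) and adult testis (ALCs) whose gene symbol begins with the name of a protease or inhibitor family, out of 10580 listed genes. The name pattern took ADAM, ADAMTS, MMP, cathepsin, PRSS, proprotein convertase, carboxypeptidase, HTRA, calpain and plasminogen activator genes on the protease side, and TIMP, serpin, cystatin, SPINK, WFDC and Eppin genes on the inhibitor side. By family, 110 of the 154 genes were classed as proteases and 41 as inhibitors. The other 3 were Plaur, the receptor of urokinase, and Adamtsl2 and Adamtsl4, matrix proteins related to the ADAMTS enzymes but without a protease domain. They are given apart.

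RNA was sequenced from 6 libraries, 3 of FLCs from embryos at E18.5 and 3 of ALCs from mice at P100. All cells came from testes of XY mice carrying the Nr5a1-GFP transgene. Nr5a1 is active in Leydig and Sertoli cells and highest in Leydig cells, and the strongly fluorescent cells were sorted. Fetal testes were taken from matings of heterozygous transgenic males with CD-1 outbred females, and cells of separate sorts were pooled to reach enough RNA. The adult males were heterozygous for the transgene. Tissue of both stages was dissociated with trypsin, and adult tissue was first digested with collagenase, hyaluronidase and DNase, so that stage and protease treatment cannot be told apart. The measured value is the authors' mean of normalized counts over all 6 libraries, referred to as the level. It is a pooled value with no spread, so no difference between FLCs and ALCs and no error of a level can be given from it, and an order of 2 close levels is a description of the means only. Values per library, and hence the depth of each library, are not analysed here. The authors' table holds a selection of genes by the p-values of their comparison of the stages, so the 154 genes are not all genes of these families that Leydig cells express. In sorted bulk RNA, fewer cells of a type and less RNA per cell cannot be told apart.

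Proteases cut peptide bonds with a metal ion, a serine, a cysteine or an aspartate at the active site, and most are made as inactive precursors. Lysosomal cathepsins degrade proteins taken up or recycled by the cell, MMPs and ADAMTS enzymes cut the extracellular matrix, membrane ADAMs release the outer parts of surface proteins, and proprotein convertases cut hormone and growth factor precursors. Their activity is held in check by protein inhibitors. TIMPs bind metalloproteases, cystatins bind cysteine proteases, and serpins trap serine proteases by a change of shape after the cut. In the testis, proteases and inhibitors are also known from sperm maturation and from the barrier around the germ cells.

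MMP, ADAMTS and catalytic ADAM enzymes bind zinc through 3 histidines that stand at fixed spacing around a catalytic glutamate. The coding sequences of that site in 8 of the enzymes are shown because the site sets apart members with and without the zinc ligands. They were read 5′ to 3′ from GENCODE vM21 transcripts on GRCm38, and capitals mark the codons of the 3 histidines and of the glutamate. Adam9, Adam17, Adam12, Mmp14 and Mmp2 carry the site within a single exon, at chr8:24990326-24990358 (minus strand), chr12:21336732-21336764 (minus), chr7:133961158-133961190 (minus), chr14:54437627-54437659 (plus) and chr8:92839279-92839311 (plus). In Adam10 (chr9:70754296-70761585, plus), Adamts2 (chr11:50775403-50776134, plus) and Adamts9 (chr6:92905285-92908493, minus) the site is split over 2 exons.
Adam10: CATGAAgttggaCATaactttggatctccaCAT
Adam9: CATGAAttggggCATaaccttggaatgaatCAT
Adam17: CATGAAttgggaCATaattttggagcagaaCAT
Adam12: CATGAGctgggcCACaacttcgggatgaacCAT
Mmp14: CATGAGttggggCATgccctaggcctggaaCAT
Mmp2: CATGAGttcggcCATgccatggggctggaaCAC
Adamts2: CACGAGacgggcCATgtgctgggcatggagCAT
Adamts9: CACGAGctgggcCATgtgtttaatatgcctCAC

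All 12 listed MMPs and all 13 listed ADAMTS genes had a coding transcript with the site. In 3 of the ADAMTS genes, namely Adamts8, Adamts9 and Adamts15, the glycine codon that stands 3 codons after the middle histidine in the other genes was absent from the longest complete coding sequence. Of 30 ADAM genes, 18 had the site and 12 did not. The 12 without it were Adam2, Adam3, Adam4, Adam5, Adam6a, Adam6b, Adam11, Adam18, Adam22, Adam23, Adam29 and Adam32. Adam11, Adam22 and Adam23 are known as adhesion proteins of the nervous system, and Adam2, Adam3 and Adam5 as proteins of the sperm surface.

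The proteases were, on the whole, low among the listed genes, and a few members carried most of the signal. The median level was 132 for the 110 proteases and 199 for the 41 inhibitors, against 679 for all 10580 listed genes. Of the proteases, 30 (27.3%) lay above the median of all listed genes, and of the inhibitors 16 (39.0%). A level under 100 was found for 52 proteases and 14 inhibitors, and a level of at least 1000 for 23 proteases and 15 inhibitors. Among all listed genes, 2432 lay under 100 and 4374 at 1000 or more. All proteases together held 0.901% of the summed level of the listed genes, and the inhibitors 0.528%.

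**Figure D1:**
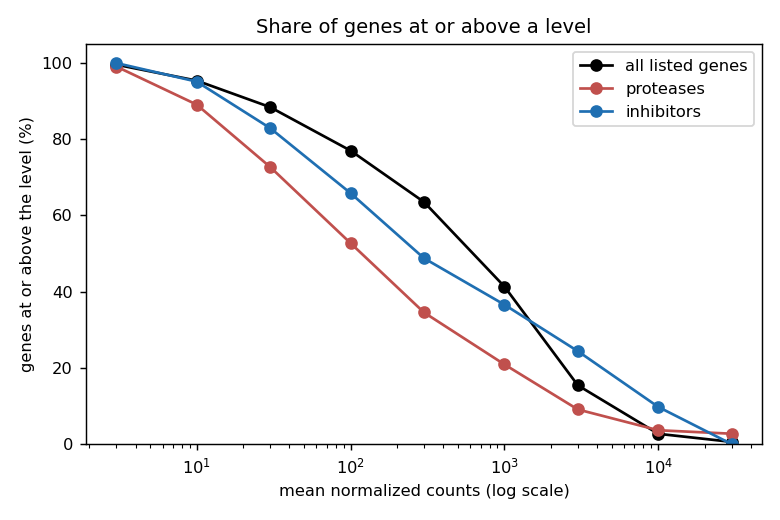
Share of genes (y axis, percent) at or above a given mean level over the 6 libraries (x axis, normalized counts, log scale) for all 10580 listed genes, 110 proteases and 41 inhibitors. At a level of 100, 52.7% of the proteases and 65.9% of the inhibitors remain, against 77.0% of all listed genes, whereas at 10000 the share is 3.64% of proteases, 9.76% of inhibitors and 2.70% of all.

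Because longer transcripts give more reads, genes are set against each other by the level divided by the exonic length in kb, the union of the exons in GENCODE vM21. Such values are referred to as the level per kb, and a level without these words is not divided by length. Per kb, 29 of the 110 proteases and 20 of the 41 inhibitors lay above the median of all listed genes. The median level per kb was 30.4 for proteases, 127 for inhibitors and 147 for all listed genes with a length. Per kb, the sum over the 41 inhibitors was 59009 and that over the 110 proteases 55211. Thus the order of the 2 summed signals depended on length, since without it the proteases summed to 200375 and the inhibitors to 117361. Ctsd, Cpe, Prss35 and Ctsb made up 72.0% of the protease sum per kb, and Cst3, Serpina5, Timp2 and Serpina3a made up 62.2% of the inhibitor sum per kb.

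**Figure D2:**
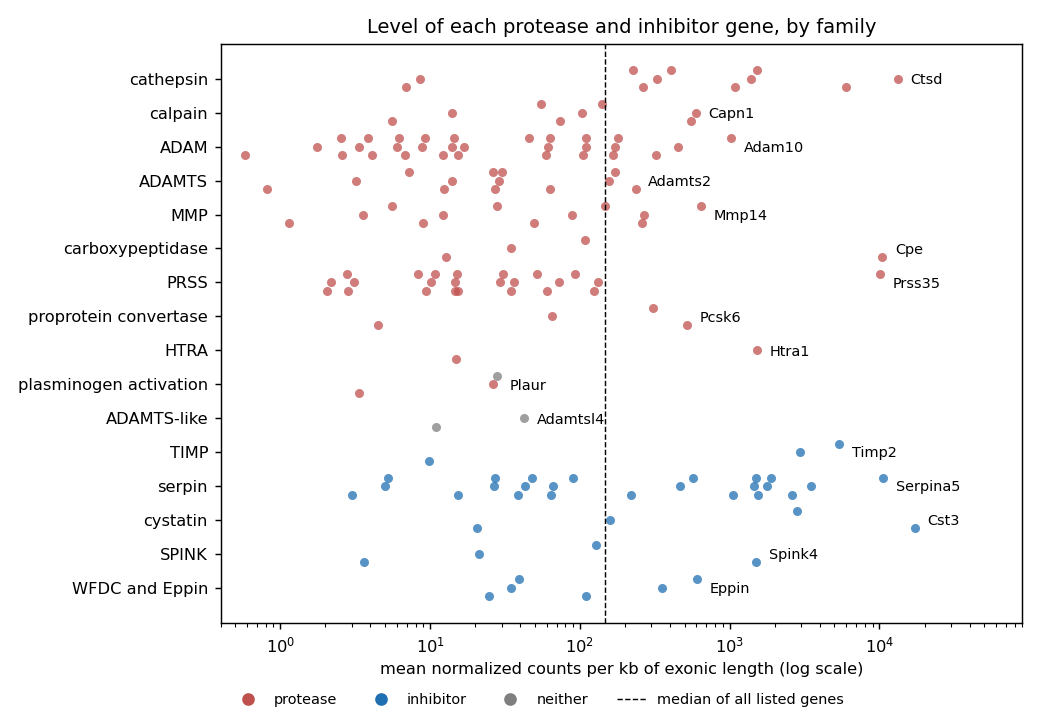
Level per kb of exonic length (x axis, log scale) of each of the 154 genes, by family (y axis). Each point is a gene, red for proteases, blue for inhibitors and grey for neither, the dashed line is the median of all listed genes (147), and the highest gene of each family is named. Most families span from under 20 to over 100 per kb, and the 7 highest members are Ctsd, Cpe, Prss35, Ctsb, Cst3, Serpina5 and Timp2.

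Among the protease families of more than 2 genes, the cathepsins had the highest median level per kb, 407. The 11 listed members had a median level of 1989, and 9 of the 11 lay above the median level per kb of all listed genes. Ctsb, a lysosomal cysteine protease on chromosome 14 from 63122462 to 63145923, had a level of 35903, rank 55 of all listed genes. Ctsd, the main aspartic protease of the lysosome, had a level of 31114, rank 59. Per kb, Ctsd had 13234 and Ctsb 5933, so that their order turns with length. The annotation places 808 of the exonic bases of Ctsd also in Gm49369 on the same strand, and 774 of those of Ctsb in Fdft1 on the opposite strand. Since the counting of strand is not given in the sources used here, both levels are uncertain where such reads were shared.

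The other lysosomal cathepsins followed at a distance. Ctsh, an aminopeptidase, had a level per kb of 1523, Ctsz, a carboxypeptidase, 1381, and Ctsl, an endopeptidase of broad action, 1082. The exons of Ctsl overlap other genes by 395 bases on the same strand and by 1742 on the opposite strand, and 26.3% of its 50-base windows recurred in other transcripts in either orientation, so its level is uncertain too. Ctso had 407 per kb, and Ctsc, which activates the serine proteases of leukocyte granules, had 226. Ctss and Ctsk, which lie next to each other on chromosome 3, had 328 and 264 per kb. Ctss is known from antigen presentation and Ctsk from the breakdown of collagen in bone. The lowest cathepsins were Ctse, with 6.93 per kb, and Ctsw, known from cytotoxic lymphocytes, with 8.53. The immune marker list holds Emr1 also under its other symbol, Adgre1, so its 5 names stand for 4 genes. All 4 were rows of the table, with levels of 11.6 for Cxcl2, 139 for Ptprc, 177 for Emr1 and 982 for Csf1r. Their part in the cathepsin levels was not tested.

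The classical calpains are cysteine proteases of the cytosol that depend on calcium. The calpain family was represented by 8 genes with levels per kb from 5.54 for Capn6 to 593 for Capn1. Whether each of the 8 is an active protease was not examined. Capn1, the large subunit of a ubiquitous calpain, was followed by Capn7 with 554 per kb, and Capn11 had 13.9. Capns1, the small subunit shared by the classical calpains and not taken by the name pattern, had 5756 per kb, and Cast, the specific calpain inhibitor, 108. Capn12, Capn5 and Capn15 had 55.4, 104 and 141 per kb.

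The metalloproteases, classed by family, were the largest group, with 59 genes, among them the 12 ADAMs without the zinc site. Their highest member was Cpe, which trims basic residues from prohormones, on chromosome 8 from 64592542 to 64693054. Cpe had a level of 27251, or 10445 per kb, against 108 per kb for Cpa1, known from the exocrine pancreas, and 12.8 for Cpa5, known from germ cells. Cpe thus held most of the carboxypeptidase signal, while 14 of the 59 genes lay above the median level per kb of all listed genes. Adam3 and Adam5, which lack the zinc site, were among the 14.

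Mmp14, a membrane-bound collagenase that also activates the precursor of Mmp2, had the highest level of the 12 MMPs, 3835, or 643 per kb. Mmp2 had 49.4 per kb, so that the level per kb of Mmp14 was 13.0 times that of Mmp2. Mmp19, Mmp24 and Mmp15 came after Mmp14, with 267, 261 and 147 per kb, and of these Mmp15 and Mmp24 are membrane-bound like Mmp14. Exons of Mmp19 and Mmp24 overlap other genes on the opposite strand. At the lower end, Mmp13, a collagenase of cartilage and bone, had 3.58 per kb and Mmp25, known from neutrophils, 1.14.

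Among the ADAM genes, known sheddases had the 4 highest levels per kb, while most sperm-surface ADAMs lay under the median of all listed genes. Adam10, the sheddase of Notch receptors and cadherins, had 1024 per kb, and Adam17, the sheddase of tumour necrosis factor and of ligands of the epidermal growth factor receptor, 321. Adam9 had 453 per kb and Adam12 178. In all, 8 of the 9 sheddases searched for were listed, and 4 of the 8 had a level per kb above the median of all listed genes, against 6 of the 8 by level. Adam15, Adam19 and Adam8 had 111, 110 and 104 per kb, and Adam28, the lowest ADAM, had 0.586. Of 17 ADAMs known from the sperm surface, 16 were listed. Of these, 2 lay above the median level per kb of all listed genes and 0 above the median level. The 2 were Adam3 and Adam5, with 172 and 165 per kb, more than Adam15, Adam19 and Adam8. Adam32 and Adam2 followed with 63.3 and 59.4 per kb, and Adam34 had 1.76, the lowest of the sperm-surface ADAMs.

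The sperm-surface ADAMs are transcribed in germ cells, and spermatid markers had levels in the same pooled means. Which of the libraries held these transcripts cannot be read from a mean over both stages. All 6 names of the spermatid marker list were rows of the table. Prm2, a protamine of the condensing sperm nucleus, had a level of 3191, Prm1 1498, Tnp2 1297 and Tnp1 1006, whereas the acrosome genes Acrv1 and Spaca1 had 62.9 and 76.9. Of 3 germ cell markers, Ddx4 alone was a row of the table, with 184. The part of germ cell RNA in the ADAM levels was not tested. Adam23, which has no zinc site, had a level of 1095 over 17907 exonic bases, or 61.1 per kb. The median level per kb was 14.2 for the 18 ADAMs with the site and 30.5 for the 12 without.

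ADAMTS enzymes had levels per kb from 0.818 for Adamts8 to 235 for Adamts2. Adamts2, which removes the amino-terminal propeptide of fibrillar procollagens, stood above Adamts3, an enzyme of the same kind with 7.22 per kb. Adamts10 and Adamts7 had 172 and 157 per kb. Adamts9 had 63.3 per kb, and the aggrecanases Adamts5 and Adamts15 26.9 and 12.5. Of the 13, Adamts2, Adamts7 and Adamts10 lay above the median level per kb of all listed genes. The ADAMTS-like genes Adamtsl4 and Adamtsl2 had levels of 179 and 88.1.

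Serine proteases had the lowest median level of the mechanistic classes, and a single gene stood far above the rest. The 32 serine proteases had a median level of 35.0, or 20.7 per kb, and on either scale 4 of them lay above the median of all listed genes. Prss35, a trypsin-like protein known from the ovary, had a level of 34924, rank 57 of all listed genes and 10141 per kb. It lies on chromosome 9 from 86743649 to 86758443. The next PRSS genes per kb were Prss39 with 132 and Prss36 with 125, so that Prss35 stood 76.6 times above Prss39. The other 23 PRSS genes were all under the median of all listed genes on either scale, down to 2.06 per kb for Prss44. Many of these, such as Prss37, Prss39 and Prss55, are known from germ cells, with 51.9, 132 and 36.3 per kb.

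The letters GDSGG or GDSGA, which surround the catalytic serine of most trypsin-like enzymes, were searched for in the translated coding transcripts of the PRSS genes, Plau and Plat. They were found in 17 of 26 genes. The 9 without them were Prss23, Prss35, Prss37, Prss43, Prss45, Prss46, Prss54, Prss57 and Prss58. The match describes these letters only and leaves the activity of a protein unanswered. The median level per kb was 14.7 with the letters and 15.3 without, and Prss35, the highest of all, was among those without.

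Among proprotein convertases, which cut precursors after basic residues, Pcsk5 and Pcsk6 were high and Pcsk4 was low. Pcsk6 had 520 per kb and Pcsk5 307, although the level of Pcsk5, 4430, exceeded that of Pcsk6, 2697, and the exons of Pcsk5 add up to 14447 bases against 5190 in Pcsk6. Pcsk4, known from germ cells, had 65.3 per kb. Htra1, a secreted serine protease, had 1527 per kb, the highest serine protease after Prss35, and Htra4 had 14.9.

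The plasminogen activators were low. Plau (urokinase) had 26.1 per kb, Plat (tissue plasminogen activator) 3.37 and the urokinase receptor Plaur 27.8. Serpine2, an inhibitor of plasminogen activators and thrombin, was low as well, with 5.22 per kb. Serpina5, the protein C inhibitor, which also inhibits plasminogen activators and is known from the male reproductive tract, had a level of 22933, rank 89 of all listed genes. Per kb, Serpina5 had 10608, 406 times the value of Plau and 3151 times that of Plat.

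**Figure D3:**
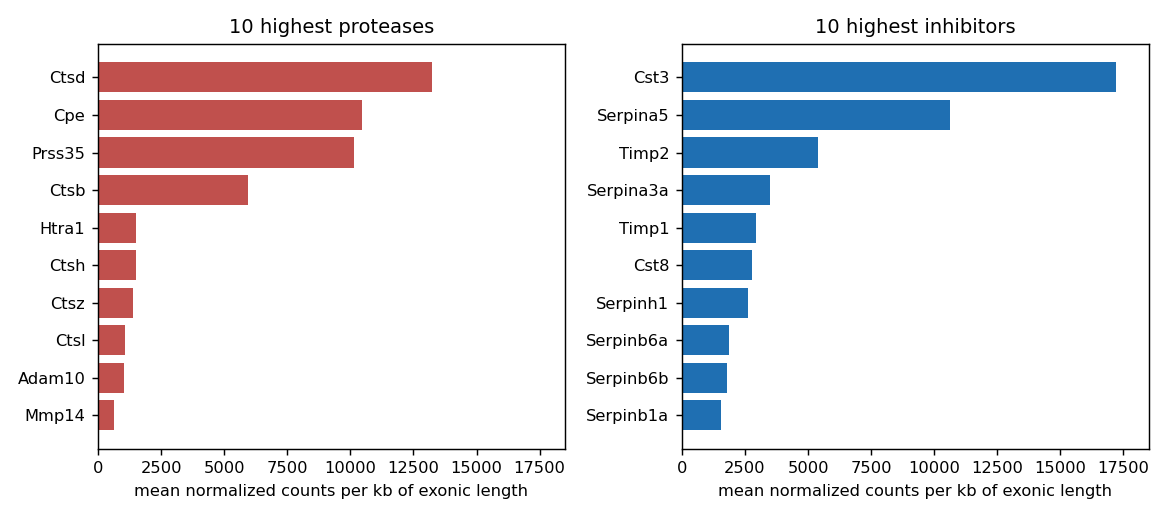
Level per kb of exonic length (x axis, linear from 0) of the 10 highest proteases (left, red) and the 10 highest inhibitors (right, blue). The bars are the authors' means over 6 libraries divided by length and have no error. Among proteases the fourth bar, Ctsb, stands at 5933 and the next, Htra1, at 1527, and among inhibitors the bars run from 17220 for Cst3 to 1547 for Serpinb1a.

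The TIMPs were represented by Timp1, Timp2 and Timp4. Timp2, which inhibits MMPs and at low amounts helps Mmp14 to activate the Mmp2 precursor, had a level of 21017, rank 101 of all listed genes. Timp1, encoded on the X chromosome, had 2623, and Timp4 58.0. Per kb, Timp2 had 1.83 times the value of Timp1 and 548 times that of Timp4. The level per kb of Timp2 was 8.38 times that of Mmp14, its partner in the activation of Mmp2. The sum per kb over the 3 listed TIMPs was 8359, against 1516 over the 12 MMPs, 2996 over the 30 ADAMs and 779 over the 13 ADAMTS genes listed. Timp3 and Mmp9, among others, were not rows of the table, so these sums do not give a balance of whole families.

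Among the 4 cystatins, Cst3, Cst8 and Cst13 lay above the median level per kb of all listed genes. Cst3 (cystatin C), the ubiquitous secreted inhibitor of cysteine cathepsins, had the highest level per kb of all 154 genes, 17220, with a level of 21801. Cst8, known from the epididymis and germ cells, had 2801 per kb, Cst13 158 and Cst11 20.5. The 4 listed cystatins summed to 20199 per kb, most of it from Cst3, and the 9 listed cysteine cathepsins to 11152. Whether Cst8, Cst11 and Cst13 inhibit cathepsins was not tested, so these sums do not give a balance of inhibitors and targets. Cstb, a cytosolic cystatin not taken by the name pattern, had 12541 per kb.

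Serpins were the largest inhibitor family, with 24 genes and a median level of 414. In clade B, the intracellular serpins, Serpinb6a, Serpinb6b and Serpinb1a had 1881, 1784 and 1547 per kb. Serpinb9, the inhibitor of granzyme B, had 468, whereas Serpinb1b had 38.9 and Serpinb8 15.5. For Serpinb6a, 25.1% of the 50-base windows recurred in transcripts of other genes in either orientation and 0.751% in the same orientation. Serping1, the inhibitor of complement C1 proteases, had 1457 per kb.

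Serpins without a protease target were among the members too. Serpinh1, a chaperone of procollagen in the endoplasmic reticulum, had a level of 6390, or 2616 per kb. That value was 11.1 times the level per kb of Adamts2, which acts on procollagen after secretion. Serpinf1, also known as pigment epithelium-derived factor, had 569 per kb, and Serpina6, the carrier of glucocorticoids in blood, 66.4. Of the serpins of blood plasma, Serpinc1 (antithrombin) had 42.8 per kb and Serpinf2 (the plasmin inhibitor) 64.3, and Serpini1, the neuroserpin, had 26.8. Exons of Serpinc1 overlap Zbtb37 by 2942 bases on the opposite strand, so its level is uncertain. Per kb of coding length, Serpinc1 had 262 and Serpinf2 101, so that their order turns with the length used.

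The SPINK, WFDC and Eppin genes, small secreted inhibitors are known mostly from epithelia and from the male tract. Spink4 had 1497 per kb and was the only one of the 4 SPINK genes above the median of all listed genes. Spink2, an inhibitor of acrosin in germ cells, had 127 per kb and Spink13 3.64. Eppin, a protein of the sperm surface, and Wfdc1 had 606 and 353 per kb, above the median per kb of all listed genes, although by level both lay under it. The remaining WFDC genes had from 24.8 per kb for Wfdc6b to 110 for Wfdc17.

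Many members lie within reach of another member on the same chromosome. With at most 1000000 bases between neighbours, 84 of the 154 genes fell into 26 groups of at least 2. Neighbours are next to each other among the members only, and other genes may lie between them. Some are of unlike families, such as Spink8 and Prss42, with 971533 bases between them. The same share was not computed for all listed genes. The group with the most genes was that of 10 clade A serpins on chromosome 12 from 103646630 to 104414329. Its levels ranged from 6.44 for Serpina3j to 22933 for Serpina5, a 3548-fold range per kb. Within the Serpina3 genes, relatives of the human antichymotrypsin, Serpina3a had 3494 per kb, Serpina3c 1508 and Serpina3n 1051, while Serpina3g, Serpina3i, Serpina3f, Serpina3b and Serpina3j had 220, 89.4, 48.1, 27.2 and 2.99. High and low members lay side by side, as Serpina3a, Serpina3b and Serpina3c did. In the cystatin group on chromosome 2, from 148768609 to 148875692, the level per kb of Cst3 was 842 times that of Cst11.

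**Figure D4:**
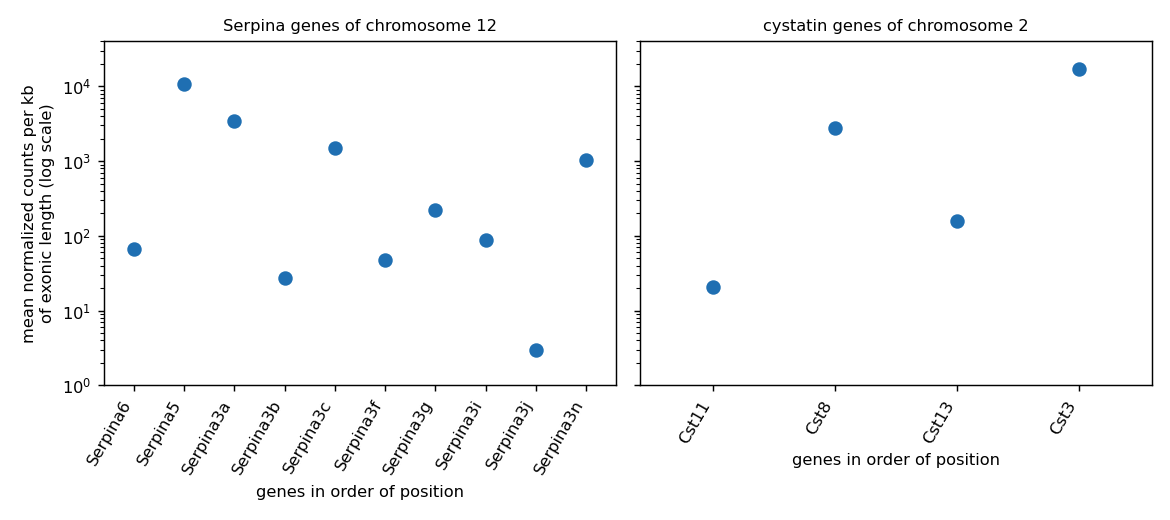
Level per kb of exonic length (y axis, log scale) of the clade A serpins of chromosome 12 and the cystatins of chromosome 2, with the genes in order of position (x axis, not to scale). Each point is a gene. Serpina3b (27.2) stands between Serpina3a (3494) and Serpina3c (1508), and Cst13 (158) between Cst8 (2801) and Cst3 (17220).

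Neighbours with similar sequences set a limit to the levels of single members, because a read of 50 bases may match both of them. Among 58 neighbouring pairs, the highest identity of coding sequence was 94.6%, between Adam6a and Adam6b on chromosome 12. It was 88.5% between Adam25 and Adam20, 88.2% between Adam20 and Adam39 and 87.5% between Adam26a and Adam34, all on chromosome 8. For Serpina3j and Serpina3n, which are next to each other among the members and differ widely in level, it was 81.3%. The runs below are printed because they are identical in 2 members each. A read of 50 bases within such a run matches both genes, although its mate may lie outside the run, and how such pairs were mapped was not examined. For Adam6a and Adam6b the longest such coding run has 223 bases, for Wfdc6a and Wfdc6b 67 and for Serpina3f and Serpina3g 56, and the first 50 bases of each are shown. They lie at chr12:113545542-113545591 in Adam6a, chr2:164585041-164585090 (minus strand) in Wfdc6a and chr12:104219436-104219485 in Serpina3f on GRCm38.
Adam6a and Adam6b: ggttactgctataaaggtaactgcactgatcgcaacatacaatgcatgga
Wfdc6a and Wfdc6b: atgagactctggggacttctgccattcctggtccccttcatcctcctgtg
Serpina3f and Serpina3g: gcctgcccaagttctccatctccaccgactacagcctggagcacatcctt

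Over all transcripts of a gene, 79 of the 154 members shared no 50-base window with a transcript of another gene in either orientation. More than 10% of windows recurred in the same orientation for 17 members, 12 proteases and 5 inhibitors. Of these, Ctsd, with 32.4%, was the only member among the 10 highest proteases, and none of the 10 highest inhibitors was among them. The others were Adam1a, Adam1b, Adam4, Adam6a, Adam6b, Adam20, Adam25, Adam26a, Adam34, Adam39, Prss53, Wfdc6a, Wfdc6b, Serpina3f, Serpina3g and Serpina3i, whose levels per kb ran from 1.76 for Adam34 to 220 for Serpina3g. With the opposite orientation added, the number was 31.

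**Figure D5:**
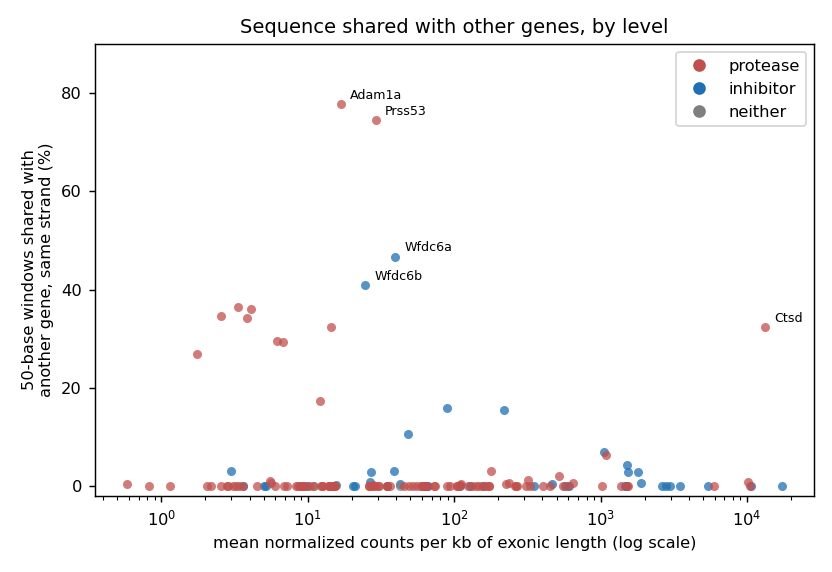
Share of 50-base windows that recur in transcripts of another gene in the same orientation (y axis, percent) against the level per kb of exonic length (x axis, log scale) for the 154 genes. Each point is a gene, red for proteases, blue for inhibitors and grey for neither. Adam1a (77.8%) and Prss53 (74.4%) are highest, and Ctsd (32.4%) is the only one of the 10 highest proteases with more than 10%.

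Other genes of proteolysis outside the name pattern were listed for 13 of 21 names, 9 of them above the median level per kb of all listed genes. Lrp1, the receptor that clears complexes of proteases and inhibitors from the cell surface, had 1578 per kb, and Ece1, which cuts the endothelin precursor, 2088. Mbtps1, a convertase of the Golgi, had 597 per kb, Lgmn, a lysosomal protease that activates cathepsins, 1249, and Spint2, an inhibitor of membrane serine proteases, 473. Reck, a membrane-anchored inhibitor of metalloproteases, had 117 per kb. Pzp, a plasma trap for proteases, had 0.732.

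The label of the cells was checked against markers. The Leydig markers Cyp17a1, Insl3, Cyp11a1, Hsd3b1 and Star had levels from 87502 to 283675, and all 5 were among the 17 highest genes of the table. The Sertoli markers Dhh and Amh had 89.0 and 137, the progenitor marker Tcf21 216, and the endothelial marker Esam 102. No name of the peritubular myoid list was a row of the table. Since the rows were selected by the p-values of the stage comparison, the level of a missing marker is unknown.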

How the data were processed

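Total RNA of 3 FLC and 3 ALC libraries was sequenced as read pairs of 50 bases after a stranded preparation with removal of ribosomal RNA, per the labels and the methods. Elsewhere the study speaks of poly(A)+ RNA, and the part of unspliced or non-polyadenylated RNA in a level per kb was not tested. According to the methods and the labels, the authors used Casava 1.8.2 for demultiplexing, GemTools for mapping, a GENCODE annotation of GRCm38 for counting reads per gene and DESeq2 for comparing the stages. The deposited signal is the authors' mean over 6 libraries of counts divided by size factors. The other 5 columns of values hold the authors' own comparison (fold changes, their errors, statistics and p-values) and were not used, except that the adjusted p was read to learn that all 10580 rows lie below 0.05. This is a property of the file and not the stricter threshold of the study. Depth per library is unknown, and no test was run.

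Symbols were looked up in GENCODE vM21, which is on the same build but another release. The current symbol matched for 10206 genes and an older symbol for 301, while 73 remained unmatched, and all 154 members matched by current symbol. Exonic length is the union of exons. Coding length is the longest coding sequence of GENCODE vM21, stop codon included, in place of the planned RefSeq proteins, for which no table was used here. Shared sequence is the share of distinct 50-base windows in all transcripts of a gene that recur in transcripts of other genes. Coding sequences of neighbours were aligned with Biopython 1.88, and their identity stands in for the planned identity of proteins. The zinc site (HEXXHXXXXXH in amino acid letters, X being any residue) and the serine letters were searched in translated coding transcripts. The site was first searched with a glycine 3 residues after the middle histidine. That residue was dropped after the strict form missed Adamts8, Adamts9 and Adamts15. The functions were tested on constructed sequences.

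The members, classes and lists were chosen with earlier results of these data known. The genes named by rule are the 10 highest proteases and inhibitors per kb, the highest and lowest of each family, the listed members of the lists of TIMPs, gelatinases and collagenases, plasminogen activation, convertases, Serpina3 genes, lysosomal cathepsins, sperm-surface ADAMs, sheddases and ADAMTS enzymes, and the most similar neighbours. The other members named, the serine letters, the ratios of levels, the printed sequences, the window length and the largest gap of 1000000 bases between neighbours were chosen after values were seen. Some genes that the rule or a list names are not reported here. Alternatives were minimum levels of 10 and 100, coding in place of exonic length, levels without division by length, and leaving out the highest member. A further alternative left out the 12 ADAMs without the zinc site and the 3 serpins known as non-inhibitory. Other members that may lack activity, such as the PRSS genes without the serine letters, were kept in it. Figures were drawn with matplotlib 3.10.9 under Python 3.11.15.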

Additional observations from a re-analysis of the deposited data

How the results depend on the processing

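The number of proteases above the median of all listed genes was 30 (27.3%). Under minimum levels of 10 and 100, the median was taken anew over the listed genes left. Above it lay 29 of the 98 proteases left (29.6%) and 22 of the 58 left (37.9%). The number was 29 per kb of exonic length, 22 per kb of coding length, and 29 without the 12 ADAMs that lack the zinc site. The number of inhibitors, 16, was 15 of the 39 and 15 of the 27 left, against the medians of the genes left. The share above the median thus went from 39.0% to 38.5% and 55.6%. The number of inhibitors was 20 and 19 per kb of exonic and coding length, and 14 without Serpina6, Serpinf1 and Serpinh1. With coding length, 9 of the 10 highest proteases and 10 of the 10 highest inhibitors were shared with the order by exonic length, and without division by length 9 and 8. The share of the summed level held by proteases, 0.901%, was 0.873% per kb of exonic length, 0.740% without Ctsb, the highest protease, and 0.888% without the 12 ADAMs. The share held by inhibitors, 0.528%, was 0.933% per kb, a move of more than 1.5 times, 0.425% without Serpina5, the highest inhibitor, and 0.493% without the 3 serpins. In an alternative chosen after seeing the data, leaving out Adamts8, Adamts9 and Adamts15 as well gave 28 proteases above the median and a share of 0.884%. No paired analysis was possible because the values are means over all 6 libraries. For the same reason the spread behind a level is unknown and no library was left out.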
